A study of Bos taurus with 12 samples.

Results

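Toll-like receptors are membrane proteins through which cells recognise molecules of microbes and of damaged tissue. The genes examined here were TLR1 to TLR10, chosen by symbol in the annotation of the array, and 8 of these 10 receptors had a probe under their symbol. These were TLR2, TLR3, TLR4, TLR5, TLR6, TLR7, TLR9 and TLR10, each represented by 1 transcript, with 18 probes in all among the 61333 probes and 26323 transcripts kept. No probe carried the symbol TLR1 or TLR8, so these receptors were not analysed here.

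The levels came from endometrial biopsies of Holstein cows collected on Day 15 of a synchronised estrous cycle. The groups were 4 old females (OF, aged 13 to 14 years and nulliparous), 4 young females (YF, aged 4 to 5 years and primiparous) and 4 Contemporary cows, whose age and parity the labels do not give, nor whether they were clones. Contemporary cow 1111 was excluded by the authors for a divergent phenotype, so 3 Contemporary cows entered the comparisons. OF and YF were cloned by somatic nuclear transfer from the cells of 1 donor cow, so that they stand for 1 genotype, and in these groups age and parity cannot be told apart. Genotype may differ as well wherever Contemporary cows are compared. The RNA of each cow was labelled with Cy3 and hybridised alone to 1 custom Agilent array, and the replicate was the cow. The 12 arrays lay on 2 slides, with 1 OF, 2 YF and cow 1111 on slide 1 and all others on slide 2. On every array, 71.6% to 74.9% of probes exceeded background clearly by the flag of the scanner software (well above background). The endometrial markers PGR, ESR1, FOXA2, HOXA10 and MUC1 were above background on all 12 arrays.

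The receptors differ in what they bind and where. TLR2, TLR6 and TLR10 belong to a subfamily at the cell surface in which TLR2 pairs with a partner to bind bacterial lipopeptides. TLR4, with its partners CD14 and LY96 (also called MD2), recognises the lipopolysaccharide of Gram-negative bacteria and is the best studied receptor of the bovine endometrium, where epithelial and stromal cells carry it. TLR5 binds flagellin. TLR3, TLR7 and TLR9 lie in endosomes and bind double-stranded RNA, single-stranded RNA and unmethylated CpG DNA, respectively. TLR2, TLR4, TLR5, TLR6, TLR7 and TLR9 signal through the adaptor MYD88 towards NF-kB and cytokine genes. TLR3 signals through TICAM1 (TRIF), and TLR4 uses both.

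Positions are those of the array annotation, for the bovine assembly UMD 3.1. TLR2 is listed at chr17:3949710-3963032, TLR3 at chr27:15232459-15243399, TLR4 at chr8:108828899-108839910, TLR5 at chr16:27303741-27306317, TLR7 at chrX:141044355-141063596 and TLR9 at chr22:49229610-49233939. TLR10 (chr6:59670233-59677223) and TLR6 (chr6:59687276-59706713) are neighbours with 10052 bases between them.

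Each receptor was read by 2 different probes of 60 bases. For the 5 receptors whose levels could be compared, the first 30 bases of each probe are printed 5′ to 3′ as the array annotation gives them, because they show how far the readings of a receptor are separate measurements. Capitals mark bases that both probes of a receptor share.
TLR2 probe 1: gtgaggttctcattactgtctggttactct
TLR2 probe 2: tccagccacagttacttgagagagtgtata
TLR6 probe 1: ataagaatttgtctccacgagagaaacttt
TLR6 probe 2: atcaactgcattgagaaaagttacaaatcc
TLR10 probe 1: ataagagtctaaaggaacctagaccagcac
TLR10 probe 2: ggattacagcagttggtttccatgttgtat
TLR4 probe 1: CTTCTCTATCAACCCATACCATAAATAAAA
TLR4 probe 2: cgtCTTCTCTATCAACCCATACCATAAATA
TLR3 probe 1: ctatggaaatatgtctccctatttcaggcc
TLR3 probe 2: ggtaaatgcttttcatcataaattgaaagt
The probes of TLR4 were the same sequence shifted by 3 bases, sharing 57 bases, so that they read 1 site and are not separate evidence. The probes of TLR9 likewise shared 47 bases. Those of the 6 other receptors shared no run longer than 8 bases, and each of the 2 sequences of TLR3 was printed under 2 probe names. Between probes of different receptors the longest shared run was 10 bases, and no probe of a receptor shared a run of 20 bases with a probe of another transcript. Whether the probes of TLR6 and TLR10 also bind RNA of the related TLR1 was not tested.

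Levels below are log2 of the processed intensity minus the 75th percentile of the array, averaged over the probes of a transcript, so that 0 is that percentile and a step of 1 is a doubling. They are compared between cows for the same receptor, never between receptors, since probes differ in brightness.

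TLR2, TLR3, TLR4, TLR6 and TLR10 were well above background with every probe on all 12 arrays. At least 1 probe was well above background on 9 of the 12 arrays for TLR5, on 8 for TLR7 and on 1 for TLR9. In OF against YF, none of the 5 receptors tested was called by limma at an adjusted p of 0.05, with 0% of the 19755 transcripts called. All 5 had a lower mean in OF than in YF, from 0.05 lower for TLR4 to 0.53 lower for TLR10. Over all transcripts tested, 48.3% were lower in OF. The 95% confidence interval (CI) of each receptor difference held 0. Without OF 2258, TLR4 was 0.10 higher in OF and the others were lower, by 0.17 (TLR2) to 0.345 (TLR10). The groups overlapped for all 5 receptors, while 1.53% of the transcripts tested had OF entirely on one side of YF.

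**Figure D1:**
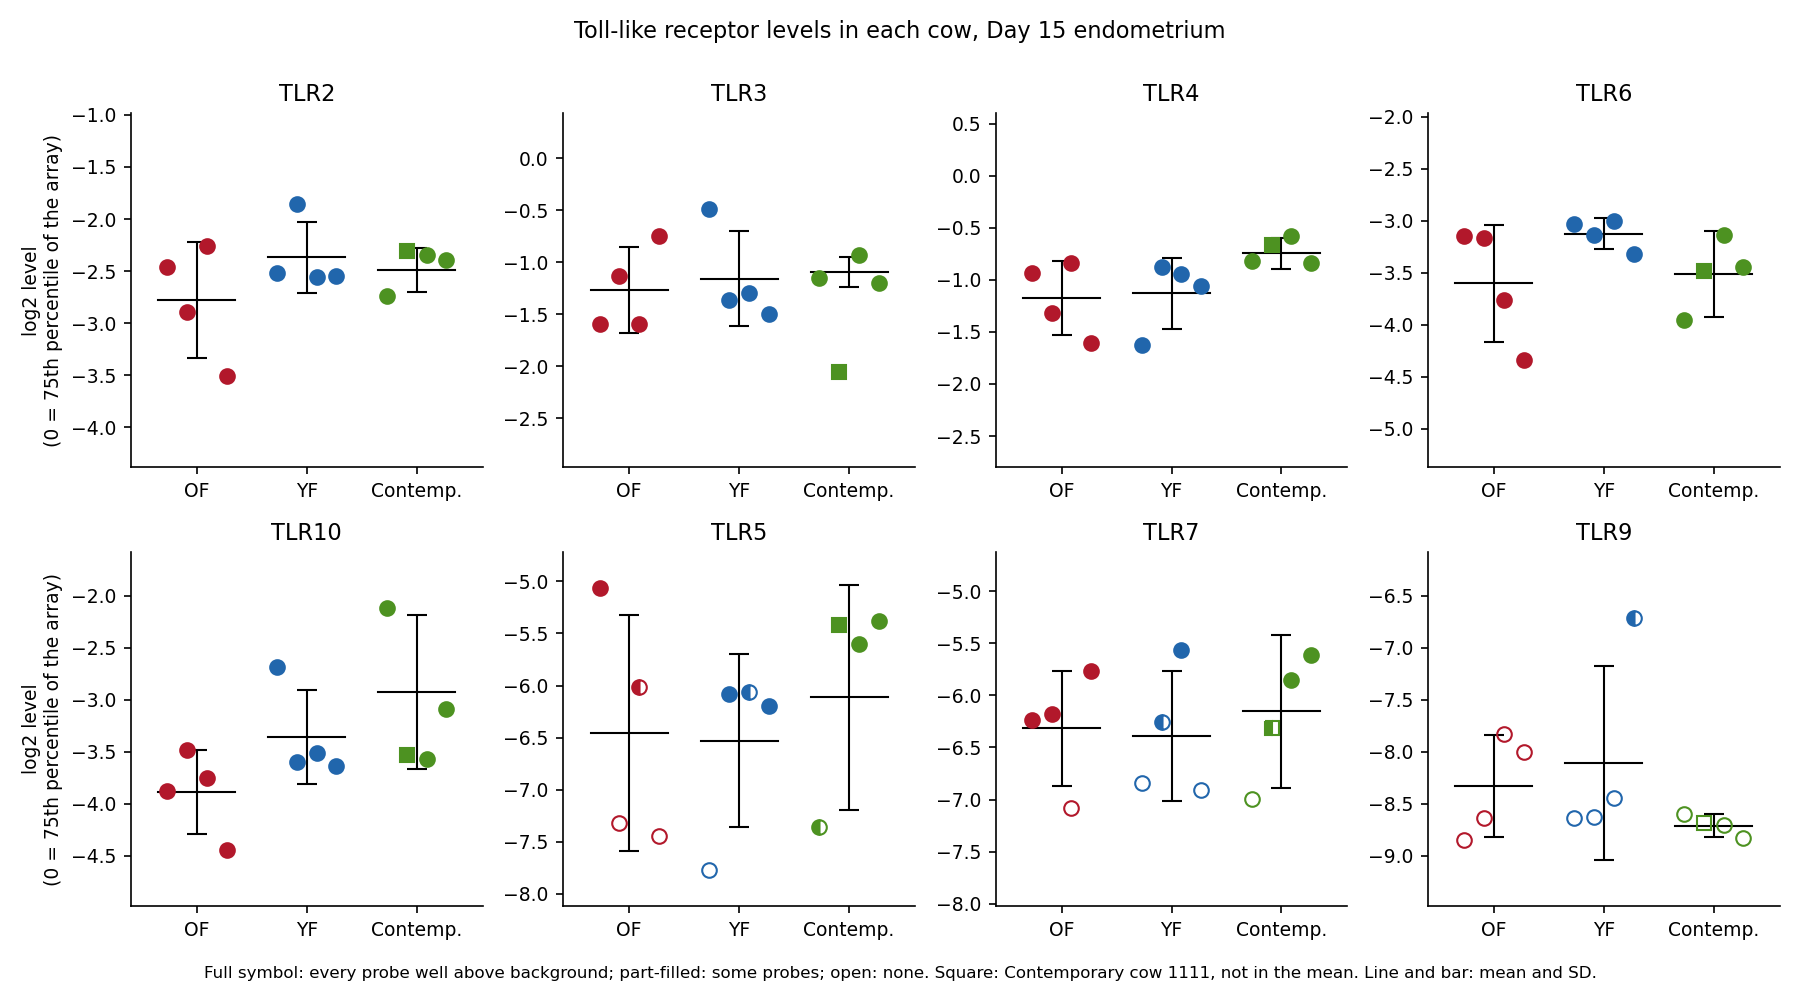
Level of each Toll-like receptor in each cow, as log2 of intensity over the 75th percentile of the array (y axis), by group (x axis), with the mean and SD per group. TLR2, TLR6 and TLR10 have their lowest point in OF 2258, and open symbols, where no probe was well above background, occur for TLR7 and TLR9 in all 3 groups and for TLR5 in OF and YF.

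Among the lipopeptide receptors, TLR2 had levels of -2.46, -2.89, -2.26 and -3.51 in OF 0233, 0234, 0245 and 2258. In YF 1069, 1070, 1072 and 1127 it had levels of -2.52, -1.86, -2.56 and -2.54. In the Contemporary cows 1068, 1128 and 1129 it had levels of -2.74, -2.34 and -2.40. All YF but 1070 therefore stood near one another, 1070 stood above them, and the OF spread over both sides. The OF averaged -2.78 ± 0.56 (SD, n = 4), against -2.37 ± 0.34 (SD, n = 4) for the YF, a difference of -0.41 (95% CI -1.09 to 0.27; limma, adjusted p = 0.999; exact permutation test, two-sided, p = 0.314). Without OF 2258 the difference was -0.17.

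TLR6, a partner of TLR2 for diacylated lipopeptides, was at -3.15, -3.17, -3.76 and -4.33 in OF 0233, 0234, 0245 and 2258. The YF lay close together, at -3.03, -3.14, -3.00 and -3.32 in 1069, 1070, 1072 and 1127. Contemporary cows 1068, 1128 and 1129 had -3.95, -3.13 and -3.44. The OF 0233 and 0234 fell among the YF, and 0245 and 2258 fell below all of them. The OF averaged -3.60 ± 0.57 (SD, n = 4), against -3.12 ± 0.15 (SD, n = 4) for the YF, and the difference of -0.48 had a 95% CI of -1.10 to 0.14 (limma, adjusted p = 0.999; exact permutation test, p = 0.171). It was -0.24 without OF 2258.

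TLR10, a member of the same subfamily whose ligand is not settled, was at -3.88, -3.48, -3.75 and -4.44 in OF 0233, 0234, 0245 and 2258. The YF 1069, 1070, 1072 and 1127 had -2.69, -3.60, -3.51 and -3.64, and the Contemporary cows 1068, 1128 and 1129 had -2.12, -3.57 and -3.09. Its YF mean of -3.36 ± 0.45 (SD, n = 4) rested on 1069, which stood well above the other 3 YF, and 3 of 4 OF were below every YF. The OF mean was -3.89 ± 0.40 (SD, n = 4), and the difference of -0.53 had a 95% CI of -1.17 to 0.11 (limma, adjusted p = 0.999; exact permutation test, p = 0.143). It shrank to -0.34 without OF 2258, to -0.31 without YF 1069 and to -0.12 without both cows. Each probe of TLR10 gave nearly the same difference between OF and YF, -0.58 and -0.48.

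TLR4, the lipopolysaccharide receptor, was at -0.93, -1.32, -0.84 and -1.60 in OF 0233, 0234, 0245 and 2258. It was at -1.62, -0.88, -0.95 and -1.06 in YF 1069, 1070, 1072 and 1127, and at -0.82, -0.58 and -0.84 in Contemporary cows 1068, 1128 and 1129. The lowest levels were in 1 OF (2258) and 1 YF (1069), and the other cows of these groups overlapped. The OF averaged -1.18 ± 0.35 (SD, n = 4), against -1.13 ± 0.34 (SD, n = 4) for the YF. Their difference of -0.05 had a 95% CI of -0.58 to 0.49 (limma, adjusted p = 0.999; exact permutation test, p = 0.943), an interval that as a ratio of OF to YF runs from 0.668 to 1.403. Its sign turned with the slide as a block (0.06), within slide 1 (0.07) and slide 2 (0.06), and without OF 2258 (0.10), OF 0234, YF 1070 or YF 1072.

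TLR3, the endosomal receptor of double-stranded RNA, was at -1.60, -1.13, -1.59 and -0.74 in OF 0233, 0234, 0245 and 2258. It was at -0.49, -1.36, -1.29 and -1.49 in YF 1069, 1070, 1072 and 1127, and at -1.15, -0.93 and -1.20 in Contemporary cows 1068, 1128 and 1129. The highest levels were those of YF 1069 and OF 2258, the same cows that had the lowest TLR4. The OF averaged -1.27 ± 0.41 (SD, n = 4), against -1.16 ± 0.46 (SD, n = 4) for the YF, with a difference of -0.11 (95% CI -0.75 to 0.54; limma, adjusted p = 0.999; exact permutation test, p = 0.686). The sign of this difference turned without YF 1069 (0.12) and with array weights (0.07), and was close to 0 without OF 0233 or OF 0245. The excluded cow 1111 had the lowest TLR3 level of the 12 cows, at -2.05.

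The receptors near background could not be ordered between groups. At least 1 probe of TLR5, the flagellin receptor, was well above background in 2 of 4 OF, 3 of 4 YF and 3 of 3 Contemporary cows, and its levels ran from -7.77 in YF 1069 to -5.07 in OF 0233. Its probes shared no long run and deviated from each other by up to 1.94 on 1 array. TLR7, the receptor of single-stranded RNA, was above background in 3 of 4 OF, 2 of 4 YF and 2 of 3 Contemporary cows, with levels from -7.08 in OF 0245 to -5.57 in YF 1072. TLR9, the CpG receptor, was above background with 1 of its probes on the array of YF 1127 (-6.72) and on no other array, where it lay between -8.85 and -7.83. The other probe of TLR9, which shares 47 bases with this probe, was above background on 0 arrays. Over 12 arrays the deviations of the 2 probes had r = -0.17, with a gap of up to 3.92. Between OF and YF, these 3 receptors were outside the limma test.

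The fold change rank ordering statistics (FCROS), which rank the 16 ratios of an OF to a YF within each pair of arrays, called 1300 of the 26323 transcripts (4.94%) at f-values within 0.025 of 0 or of 1 and a fold change of 1.5. The f-value is the position of a transcript in a normal curve fitted to the mean ranks of all transcripts and is not adjusted for their number, so calls arise at these limits whether or not the groups differ. They called 0 of the 8 receptors. TLR10 came nearest, with an f-value of 0.0376 and a fold change of 0.685. TLR6 had an f-value of 0.0696 with a fold change of 0.754, and TLR2 had 0.0730 with a fold change of 0.774. The limma test called 0 transcripts and had 478 at an unadjusted p of 0.05, none of them a receptor.

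Contemporary cows were then set against YF and against OF, with 6 receptors tested. TLR5 entered these tests only because it was above background in every Contemporary cow. Both comparisons use the same 3 Contemporary arrays, so their values are given side by side and are not separate evidence. By limma, 0 of 6 receptors were called against YF, beside 0% of 19993 transcripts (606 at an unadjusted p of 0.05). Likewise, 0 of 6 were called against OF, beside 0% of 19914 transcripts (911 at an unadjusted p of 0.05).

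**Figure D2:**
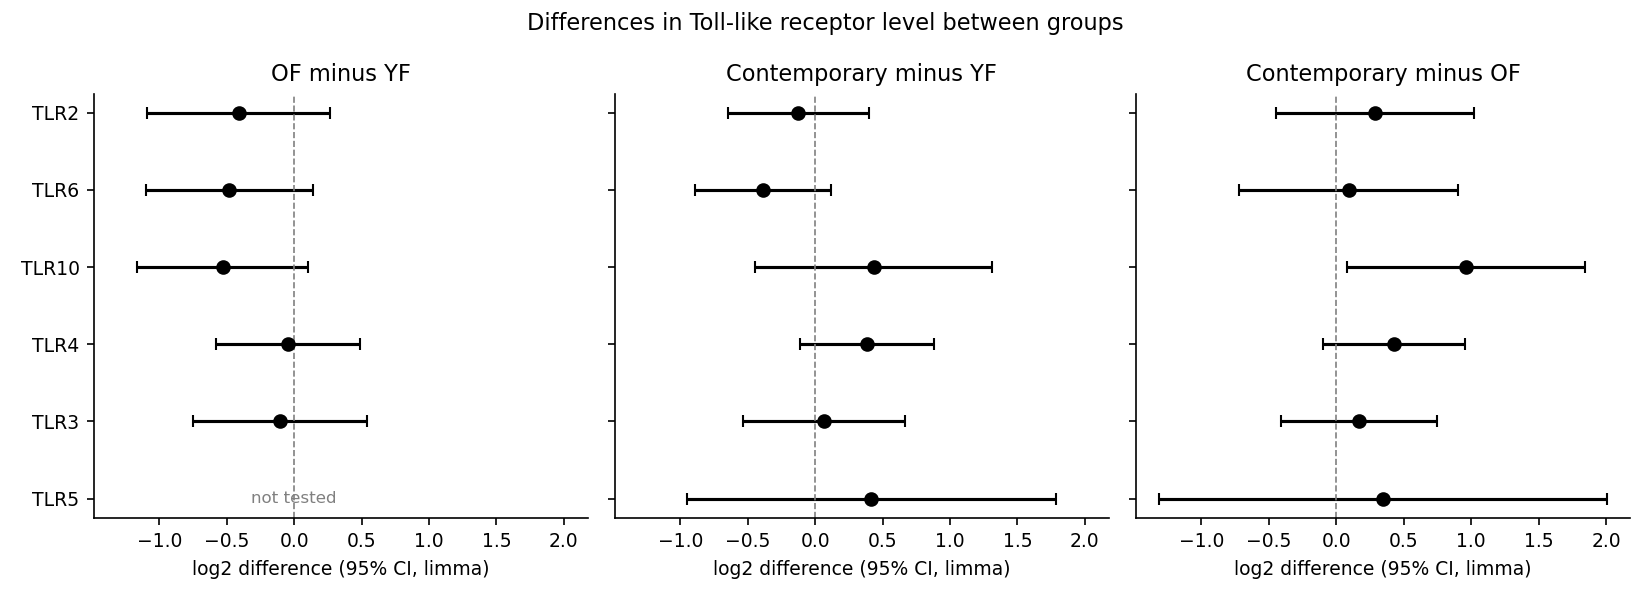
Log2 difference between groups for each receptor tested (points) with its 95% confidence interval from limma (bars), and the line of no difference dashed. All intervals hold 0 except that of TLR10 in Contemporary cows against OF (0.08 to 1.85), whose adjusted p was 0.912.

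TLR10 had the largest difference of the 6 receptors between Contemporary cows and OF. Its mean was -2.92 ± 0.74 (SD, n = 3) in Contemporary cows, 0.96 above that of OF (limma, unadjusted p = 0.036 and adjusted p = 0.912; exact permutation test, two-sided, p = 0.057, where 3 cows against 4 can give no less than 0.0286) and 0.43 above that of YF (limma, adjusted p = 0.9999; exact permutation test, p = 0.371). The level of cow 1068 was 2.12 below the 75th percentile, the highest of all cows. Without it the differences fell to 0.56 against OF and 0.03 against YF. With array weights, which give less weight to arrays that fit the group means poorly, they were 0.31 and 0.20. With cow 1111 included, the difference from OF was 0.81.

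TLR4 was at -0.75 ± 0.15 (SD, n = 3) in Contemporary cows, with all 3 cows above all 4 YF. The gap was small, since the lowest Contemporary cow was at -0.84 and the highest YF at -0.88. Groups that did not overlap were found for 3.83% of the transcripts tested in this comparison. The difference was 0.38 from YF (95% CI -0.12 to 0.88; limma, adjusted p = 0.9999; exact permutation test, p = 0.086) and 0.43 from OF (95% CI -0.10 to 0.96; limma, adjusted p = 0.912; exact permutation test, p = 0.171). In every alternative processing TLR4 kept a higher mean in Contemporary cows, by 0.22 to 0.60 against YF and by 0.29 to 0.58 against OF, and cow 1111 was also above every YF, at -0.66.

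The other receptors gave smaller or less even differences. TLR2 in Contemporary cows was 0.12 below YF and 0.29 above OF, and TLR6 was 0.39 below YF and 0.09 above OF. TLR3 was 0.06 above YF and 0.17 above OF, and TLR5 was 0.42 above YF and 0.35 above OF, with 95% CI of -0.95 to 1.78 and -1.32 to 2.01 respectively. Single cows carried much of these values. TLR5 against YF was 0.002 without YF 1069 and 1.04 without cow 1068, TLR2 against OF was 0.04 without OF 2258, and TLR6 against YF was -0.17 without cow 1068. For each receptor measured in all cows, no pair of groups differed by enough to be called. The means ran from low to high as OF, Contemporary, YF for TLR2 and TLR6, and OF, YF, Contemporary for TLR3, TLR4 and TLR10. This order describes the means alone. For TLR2, TLR3, TLR4 and TLR6 the sign of a difference in it turned in some alternatives.

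Markers of cell types differed between cows, and OF 2258 and YF 1069 stood apart in those of epithelium and stroma. The summed level of 6 epithelial markers (EPCAM, CDH1, KRT8, KRT18, KRT19 and CLDN4), as a multiple of the 75th percentile, ranged from 8.82 to 66.8 in OF, from 16.5 to 61.4 in YF and from 34.9 to 48.4 in Contemporary cows. The lowest values of OF and YF were those of OF 2258 and YF 1069. These cows had the lowest TLR4 and the highest TLR3 of the 11 cows compared. Their stromal marker sums (VIM, DCN, LUM, COL1A1, COL3A1 and PDGFRA), 177 and 263, were the highest of their groups, where the others reached at most 153 in OF and 148 in YF. The other cows did not follow this order throughout, since cow 1068 had epithelial markers below the mean of the 11 cows (mean log2 deviation -0.30) with TLR4 above it (0.22), and cow 1129 had a stromal sum of 209 with TLR3 near its mean (-0.015). In tissue of mixed cells, fewer cells of a type and less RNA per cell cannot be told apart.

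**Figure D3:**
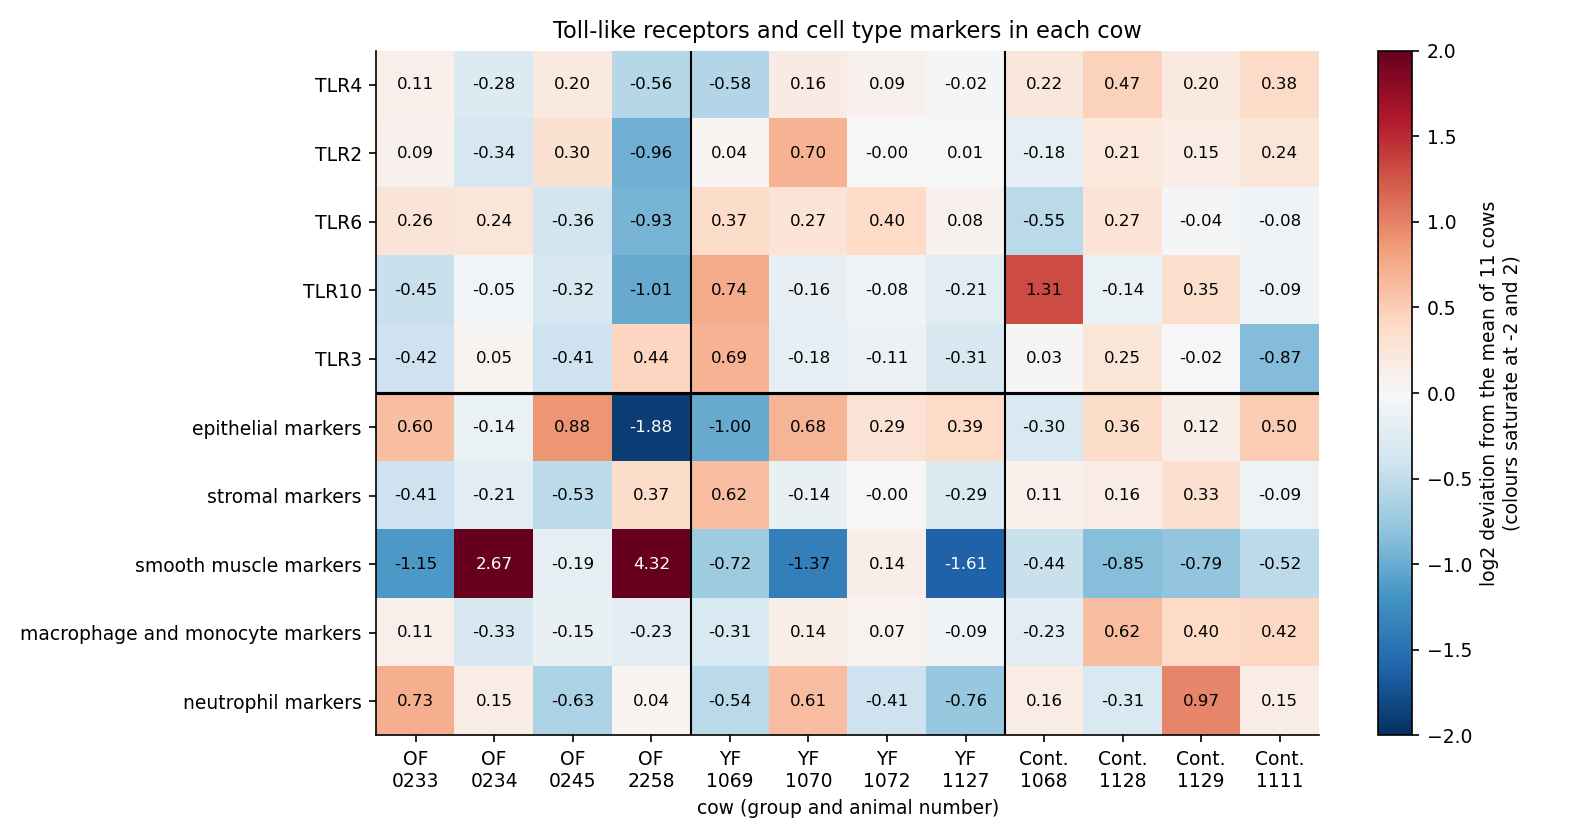
Log2 deviation of 5 receptors and of 5 marker lists (mean over the markers of the list) from the mean of 11 cows, in each cow, with colour scaled from -2 to 2. In OF 2258 and YF 1069 the epithelial markers have their lowest values (-1.88 in 2258), TLR4 is at -0.56 and -0.58, and TLR3 is at 0.44 and 0.69.

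The opposite run of these receptors can be put as a likeness of deviations from the group mean over 11 cows. It was r = -0.87 between TLR3 and TLR4, and r = -0.54 over the 9 cows left without the 2 that deviated most in TLR3. TLR2 and TLR4 had r = 0.76, and r = 0.55 over 9 cows. The levels of all these receptors come from the same arrays, and the values are descriptions.

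Smooth muscle markers were high in 2 of the 4 OF. The summed level of 5 markers (MYH11, DES, CNN1, TAGLN and MYLK) was 180 in OF 0234 and 590 in OF 2258, against 11.6 to 23.2 in the other 2 OF, 9.09 to 30.5 in YF and 12.9 to 20.9 in Contemporary cows. When OF 0234 and OF 2258 were left out, the difference between OF and YF became 0.01 for TLR2 and 0.24 for TLR4, and it stayed below 0 for TLR6 (-0.33), TLR10 (-0.46) and TLR3 (-0.44). When the cows with the lowest epithelial markers, OF 2258 and YF 1069, were left out, the differences were -0.22 for TLR2, -0.21 for TLR6, -0.12 for TLR10, -0.07 for TLR4 and -0.06 for TLR3. These are differences without a call, and the part of cell makeup in them was not tested.

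Leukocyte markers were also followed, since many leukocytes carry these receptors. The summed level of 9 macrophage and monocyte markers ranged from 4.07 to 5.08 in OF, from 4.08 to 5.19 in YF and from 4.00 to 7.86 in Contemporary cows. Of these 9, CD163 was above background on 1 array and ITGAM on 0 arrays. The 6 neutrophil markers summed to 17.4 to 36.1 in OF, 10.8 to 100 in YF and 18.0 to 131 in Contemporary cows, of which LTF, which endometrial epithelium also expresses, made up 73.0% to 98.9%. Without LTF they summed to 1.11 to 4.70 in OF, 1.25 to 2.98 in YF and 1.39 to 6.35 in Contemporary cows. The 5 dendritic cell markers summed to 0.275 to 0.458 in OF, 0.282 to 0.449 in YF and 0.486 to 0.856 in Contemporary cows, with XCR1 and CLEC9A above background on 1 array each, and IRF8 made up 78.5% to 92.0% of these sums. The sums of T and NK cell markers lay between 0.745 and 1.87 over all 11 cows, and endothelial markers summed to 4.21 to 5.31 in OF, 2.95 to 5.76 in YF and 5.52 to 7.73 in Contemporary cows. Cow 1068, which had the highest TLR10, had sums of 4.00 for macrophage, 1.28 for T and NK cell and 1.25 for B cell markers. OF 2258, which had the lowest TLR10, had 4.07, 0.745 and 0.979 for the same lists. The part of these cell types in the receptor levels was not tested.

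Each receptor had genes whose level ran most like it across the 11 cows, among 14578 transcripts of named genes. For TLR4 these were CELSR2 (r = 0.99), an atypical cadherin, SQSTM1 (r = 0.98), an autophagy receptor, and RETREG1 (r = 0.98), a receptor for autophagy of the endoplasmic reticulum. For TLR3 they were FOLH1 (r = 0.97), a glutamate carboxypeptidase, GALT (r = 0.97), an enzyme of galactose metabolism, and CMTM3 (r = 0.97). TLR2 ran most like ESRRA (r = 0.97), an orphan nuclear receptor, CCDC57 (r = 0.97) and ACSL5 (r = 0.96), a long chain acyl-CoA synthetase. TLR6 ran most like STMN2 (r = 0.95), C3 (r = 0.94), the central complement component, and ADAMDEC1 (r = 0.94), a metalloprotease. TLR10 ran most like KAT7 (r = 0.96), a histone acetyltransferase, NDOR1 (r = 0.95) and TMEM82 (r = 0.95). All values of r are Pearson correlations of deviations from the group mean. Over the 9 cows left without the 2 that deviated most, they stood between 0.87 and 0.97. The best of 14578 values is high by choice, so they rank genes and test nothing.

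The genes around the receptors were counted over 6 lists of 67 genes, all of which had a transcript on the array. Of the 58 tested in OF against YF, limma called 0. TAB1 and CXCL8 had entered the test through 1 group alone, and such genes are left out of the counts and medians that follow. Of the other 56 genes, 30 were higher and 26 lower in OF, with a median difference of 0.03, beside 0.01 over all 19755 transcripts. The 5 receptors had a median of -0.41, and without OF 2258 their differences ran from -0.345 (TLR10) to 0.096 (TLR4). Against YF, the Contemporary cows had 30 of 56 higher with a median of 0.03, and against OF 32 of 56 higher with a median of 0.06, again with 0 called by limma, and with 2 and 4 of the 58 tested respectively at an unadjusted p of 0.05.

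**Figure D4:**
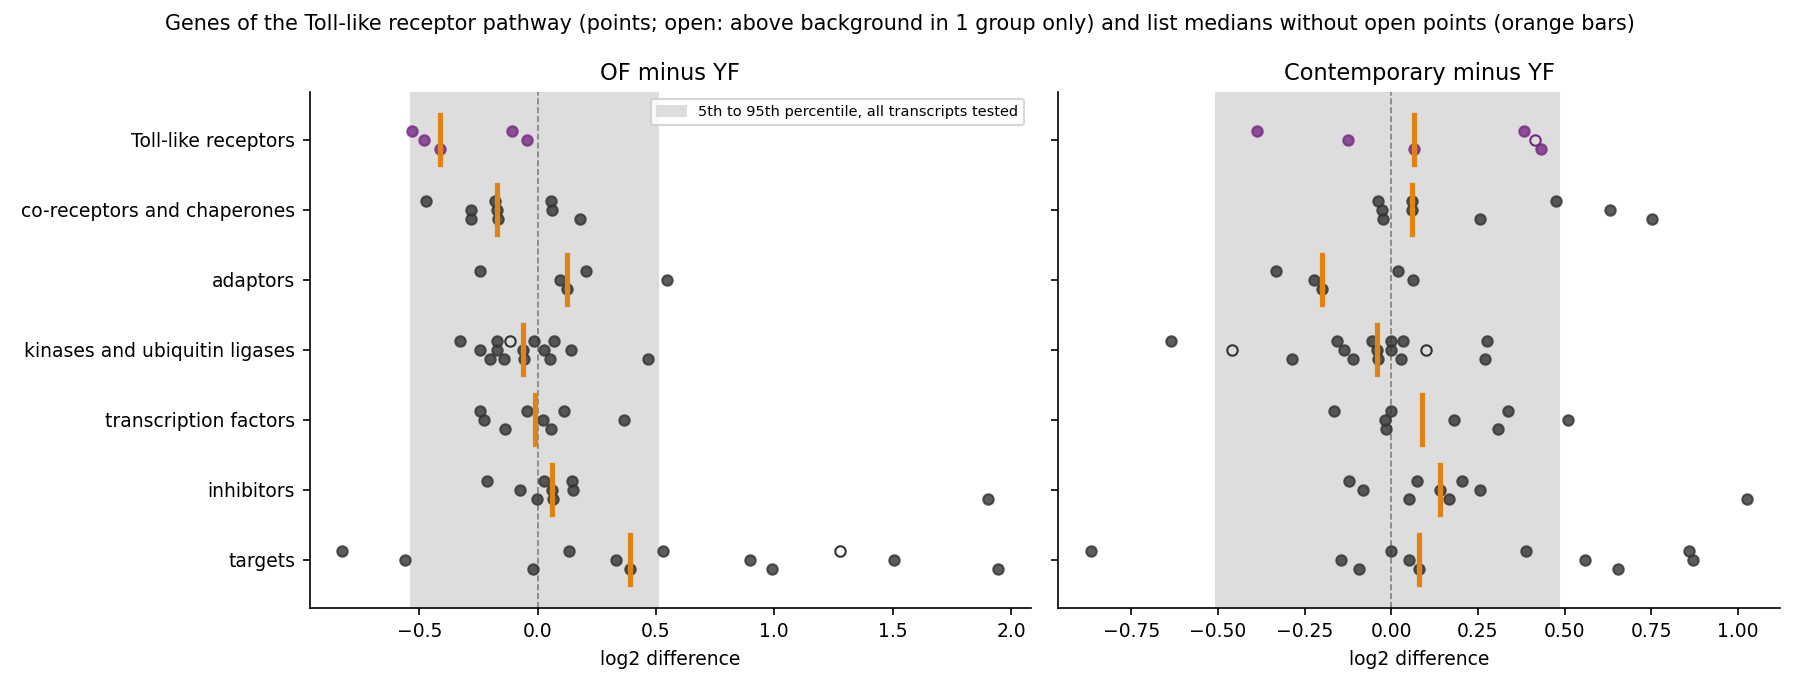
Log2 difference of each gene tested (points, open where it was above background throughout only 1 of the groups) by list (y axis), with medians of the filled points as orange bars, for OF against YF (left) and Contemporary cows against YF (right). The grey band spans the 5th to 95th percentile of all transcripts tested. In OF against YF the receptors lie at or left of -0.05, and the targets reach 1.95 with a median of 0.39.

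Among co-receptors and chaperones, 6 of 9 genes tested were lower in OF, with a median of -0.17. With OF 2258 left out, 6 of 9 were again lower, but the median was -0.04. LY96, which binds lipopolysaccharide together with TLR4, was at 0.21, -0.17, 0.31 and -0.65 in OF 0233, 0234, 0245 and 2258 and at 0.21, 0.41, 0.36 and 0.60 in YF 1069, 1070, 1072 and 1127. Its difference of -0.47 was the largest fall of the list and was not called (limma, adjusted p = 0.999; exact permutation test, p = 0.086). CD14, which hands lipopolysaccharide to LY96, differed by -0.18, and CD180, a relative of TLR4 on B cells, by -0.28. UNC93B1, which carries the endosomal receptors from the endoplasmic reticulum, differed by -0.28. Its level was -2.16 in OF 2258 against -1.34 to -0.91 in the other OF. When OF 2258 was left out, the differences were -0.28 for LY96, -0.11 for CD14, -0.04 for CD180 and -0.03 for UNC93B1. The fatty acid transporter CD36 had the largest rise, 0.18. LBP, the serum protein that binds lipopolysaccharide, was above background on 6 arrays and was not tested.

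In Contemporary cows, 5 of the 58 genes tested had no overlap with OF (CD14, LY86, PIK3AP1, IRAK1 and NFKB2) and 1 with YF (LY86). Over all transcripts tested, the groups did not overlap for 5.79% against OF and 3.83% against YF. LY86 (MD1), the partner of CD180, was at -3.81, -3.53 and -3.52 in cows 1068, 1128 and 1129, above all OF (-4.53 to -4.24) and all YF (-4.43 to -4.12). It was 0.80 higher than in OF (limma, adjusted p = 0.638) and 0.63 higher than in YF (limma, adjusted p = 0.9999). In both comparisons the exact permutation test gave the smallest p possible with 3 cows against 4, 0.0286. LY86 was named here for its lack of overlap, which by itself brings this p to or near its minimum, so the p is a description. CD14 in Contemporary cows was 0.44 above OF without overlap (limma, adjusted p = 0.912; exact permutation test, p = 0.0286). LY86 is expressed by B cells and macrophages. In cows 1068 and 1128 the macrophage marker sums were 4.00 and 7.86, and the B cell marker sums were 1.25 and 1.11. The part of these cell types in the LY86 levels was not tested.

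Among adaptors, 4 of 5 tested were higher in OF, with a median of 0.12. With OF 2258 left out, 3 of 5 were higher and the median was 0.02. MYD88 was lower by 0.24, TICAM1 differed by 0.10, and PIK3AP1, which links the receptors to PI3 kinase, had the largest rise, 0.55 (limma, adjusted p = 0.999; exact permutation test, p = 0.057). PIK3AP1 was 0.88 lower in Contemporary cows than in OF without overlap (limma, adjusted p = 0.733; exact permutation test, p = 0.0286), but cow 1111, left out of this test, lay within the OF at -5.12. TIRAP, the bridge between TLR2 or TLR4 and MYD88, was above background on 2 arrays and was not tested.

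Of 14 kinases and ubiquitin ligases, 9 were lower in OF, with a median of -0.06. With OF 2258 left out, 10 were lower and the median was -0.03. IRAK1 differed by -0.17, IRAK4 by -0.25 and TRAF6 by -0.02. IKBKB, a kinase that marks the NF-kB inhibitor for decay, had the largest fall, -0.33, and IRAK2 the largest rise, 0.46. OF 2258 was the extreme for both, at 1.93 for IKBKB, the lowest of the 12 cows, and at 2.14 for IRAK2, the highest. Of the 8 transcription factors, 4 were higher and 4 lower. NFKB1 differed by 0.11, RELA by 0.02, IRF3 by -0.14, IRF7 by -0.24 and NFKB2 by 0.36. With OF 2258 left out, 6 transcription factors were higher and 2 lower.

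Of the 9 inhibitors tested, 6 were higher in OF, with a median of 0.06. With OF 2258 left out, 6 were again higher and the median was 0.11. SIGIRR, an inhibitory receptor, differed by 0.14, TOLLIP by 0.15, NFKBIA, the NF-kB inhibitor, by 0.03 and CYLD, a deubiquitinase, by -0.21. ATF3, a repressor of cytokine genes that is also an early stress gene, had a difference of 1.90, but its OF levels ran from -0.31 to 7.33, the latter in OF 2258.

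The targets had the highest list median, 0.39, with 8 of 11 higher in OF and 0 called by limma. Without OF 2258, the cow with the highest smooth muscle and lowest epithelial markers, 8 of 11 were higher and the median was 0.14, beside 0.01 over all transcripts. The rise was largest for CCL4 (1.95; exact permutation test, p = 0.229) and the fall for IL1A (-0.82; exact permutation test, p = 0.514), both at an adjusted p of 0.999 by limma. CCL4, a chemokine of monocytes and T cells, was at -4.71, -3.92, -3.41 and 0.91 in OF 0233, 0234, 0245 and 2258 and at -5.83, -3.27, -4.58 and -5.23 in YF 1069, 1070, 1072 and 1127. Only OF 2258 stood above all YF. FCROS called CCL3 (fold change 7.28) and CCL4 (fold change 10.97) over-expressed in OF, and called neither without OF 2258, where the fold changes were 1.25 and 1.396. Neither was called without YF 1069, the YF with the lowest CCL4, and CCL3 was not called without YF 1127. It also called CCL20 under-expressed (fold change 0.566), although this gene was above background on 5 of the 12 arrays, and did not call it with untrimmed ranks or without OF 0233, 0234 or 2258 or YF 1070, 1072 or 1127 (fold change 0.835 without 1070). IL1B differed by 0.39, CXCL8 by 1.28 and TNF by 0.53, with OF 2258 highest of the 12 cows for all 3, at -2.71, -1.06 and -2.80. Without it these differences were 0.03, 0.23 and -0.05. CXCL8 entered the test only through OF, where it was higher, and its difference is a description. IL6 was above background on 7 arrays and was not tested. OF 2258 had the lowest TLR2, TLR6 and TLR10 of the 12 cows and the highest CCL3, CCL4, CXCL8, TNF, IL1B and IRAK2. Among the targets tested it was also highest for CCL2 and NFKBIZ, but not for IL1A, IL10, CCL5, CXCL10 or PTGS2. Its CCL5 was the lowest of the OF (-1.40). These are extremes of 1 cow, and a link between them was not tested.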

How the data were processed

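The authors deposited, for each of 12 arrays of 1 colour, the Feature Extraction 10.7.3.1 output, in which the processed intensity of each spot is corrected for background and not normalized between arrays. Levels are log2 of this intensity less the 75th percentile of each array. Without 1319 control spots and 66 probes flagged as outliers, 61333 probes were averaged into 26323 transcripts. Symbols came from RefSeq accessions (12774 transcripts) or the array annotation (9184), and 4365 were unnamed. A symbol with several transcripts was read from its brightest one.

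Comparisons used limma 3.58.1 (R 4.3.3), two-sided, with Benjamini-Hochberg adjustment at 0.05, over transcripts of which a probe exceeded background on all arrays of 1 of the compared groups, and only arrays of these groups entered a fit. FCROS was coded from its description, trimming a share of 0.25 of the ranks at each end. In simulated data with 200 transcripts changed by 2 in log2, limma recovered 78.6% and FCROS 98.5%. Without any change, limma called 0 of 19755 transcripts and FCROS 1005 on average. In the data, FCROS called 944 of these transcripts. For limma, each simulated transcript was drawn independently from a normal curve with the same SD in both groups. Genes in the data vary together, so the simulated counts do not give the number that chance alone would call there. The change of 2 was larger than any receptor difference here, and smaller ones were not simulated. Single values were tested with exact permutation.

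The receptors, the gene lists and markers were chosen with earlier results of these data known. Named were all receptors, fixed members of each list, the largest rise and fall of each list in OF, and the 3 genes most like each receptor. Other genes were named from the outcome, among them those called by FCROS and LY86, whose groups did not overlap. Alternatives were quantile normalization, normexp (offset 50), median centring, the brightest probe, each probe alone, no filter, dim probes left out, array weights, a block for the slide, a fit over all 3 groups, cow 1111 included, untrimmed FCROS and each cow left out. Leaving out pairs of cows, list medians without OF 2258 and over genes above background in both groups were chosen after seeing the data. The files give no counts, and the number of arrays limits the precision. Probe positions within genes (exon, intron or UTR) were not determined, since no genome of that build was used here.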

Additional observations from a re-analysis of the deposited data

Results flagged for a closer look

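Of 98 groups of 4 cows whose spread was examined (receptors, named pathway genes and marker lists in OF and in YF), 7 held a cow whose gap to the nearest other cow, as a share of the range of the group, was above Dixon's 95% critical value for 4 values. Chance alone flags about 1 in 20 such groups. In YF, TLR2 was high in 1070 (0.942 of the range), TLR10 was high in 1069 (0.863) and TLR5 was low in 1069 (0.921), where neither of its probes was above background. TLR9 was high in YF 1127 (0.901), the 1 array on which a TLR9 probe was above background. The other TLR9 probe, which shares 47 bases with this probe, was above background on 0 arrays. TICAM1 (0.843) and NFKB1 (0.884) were both low in YF 1127. In OF, the mean deviation of the endometrial markers was low in 2258 (0.854).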

How the results depend on the processing

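No alternative called a receptor, a gene of the pathway lists or any transcript in OF against YF by limma, or a receptor in Contemporary cows or by FCROS, where 944 (transcripts tested by limma) to 1555 (without YF 1072) transcripts were called instead of 1300. Of the 67 pathway genes, FCROS called 3 (4.48%, beside 4.94% of all transcripts), and 1 (without YF 1069) to 6 (without OF 0234) with 1 cow left out. Of 326 differences of a receptor under an alternative, 296 kept their direction and 30 reversed, none of them called. In OF against YF, TLR3 reversed with array weights (0.067), TLR4 with the slide as a block (0.062), and TLR2 and TLR4 without OF 0234 and 2258 (0.01 and 0.24). Leaving out 1 cow, TLR3 ranged from -0.28 to 0.12 and TLR4 from -0.212 to 0.10. In Contemporary cows against YF, TLR2 and TLR3 reversed with the slide as a block (0.038 and -0.104), and TLR3 with cow 1111, with or without OF in the fit (-0.17). Leaving out 1 cow, TLR2 ranged from -0.198 to 0.047 and TLR3 from -0.047 to 0.29. Against OF, TLR3 reversed with cow 1111 (-0.068, also with YF in the fit), TLR5 with normexp (-0.083), and TLR6 with normexp (-0.037), the brightest probe (-0.022) and array weights (-0.001). Leaving out 1 cow, TLR5 ranged from -0.019 to 0.97 and TLR6 from -0.15 to 0.31. The causes were not tested. Array weights moved TLR10 and TLR6 in OF against YF to -0.11 and -0.16, and normexp, which compresses dim probes, to -0.26 and -0.24. Within slide 1 and slide 2, OF differed from YF by -0.20 and -0.77 for TLR10, -0.69 and -0.37 for TLR6 and -0.05 and -0.42 for TLR2, while TLR4 reversed in both (0.072 and 0.057), where slide 1 held 1 OF. No paired analysis was possible because the groups share no replicate numbers.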

Other observations

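A transcript without a symbol in the annotation (ENSBTAT00000029896, chrX:141003992-141007093 in UMD 3.1) lies 37261 bases from TLR7. It had a probe above background on 1 of 12 arrays, that of YF 1072 (-6.31), and a median level of -8.47 over all arrays.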
